A study of Mus musculus with 40 samples.

Results

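The genes that move bile acids through the liver and the intestine, and the canalicular pumps that work beside them, were followed across 40 RNA sequencing libraries of mice with and without small bowel resection (SBR). The 10 genes were taken by name from the 15958 genes of the table: *Slc10a1*, *Abcb11*, *Abcc2*, *Abcb4*, *Abcc3*, *Abcc4*, *Slc51a*, *Slc51b*, *Slc10a2* and *Fabp6*. All 10 were described in the liver, and *Slc10a2*, *Fabp6*, *Slc51a* and *Slc51b* also in the ileum and the duodenum. All mice were wild type C57BL/6 males that had surgery at 8 weeks of age, and tissue was taken 10 weeks later, at 18 weeks of age. The sham group had sham surgery and vehicle, the SBR vehicle group had resection and vehicle, and the SBR WUSTL0717 group had resection and WUSTL0717, a gut-restricted agonist of the liver X receptors (LXRs), at 30 mg/kg. Vehicle or drug was given by mouth once a day for 7 weeks, starting 3 weeks after surgery. The liver was sampled in 5 sham, 8 SBR vehicle and 5 SBR WUSTL0717 libraries. The duodenum and the ileum below the anastomosis were each sampled in 3, 4 and 4 libraries. The labels give the resected share as 50 to 60%, and the study's methods give a larger extent. The replicates are numbered in the labels, which do not state that each library is a separate mouse, so p-values measure the spread between these libraries.

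Bile acids are made in hepatocytes, pumped across the canalicular membrane into bile, taken up again by enterocytes of the ileum and returned in portal blood, a cycle called the enterohepatic circulation. Uptake from portal blood runs through NTCP (*Slc10a1*), and export into bile through the bile salt export pump (*Abcb11*), MRP2 (*Abcc2*) and the phospholipid floppase MDR2 (*Abcb4*). MRP3 (*Abcc3*), MRP4 (*Abcc4*) and the 2-part carrier OSTα-OSTβ (*Slc51a*, *Slc51b*) export bile acids across the basolateral membrane, in hepatocytes toward the blood. In the ileum, ASBT (*Slc10a2*) takes bile acids up from the lumen, the ileal bile acid binding protein (*Fabp6*) carries them through the cell, and OSTα-OSTβ passes them on. The farnesoid X receptor FXR (*Nr1h4*) is the nuclear receptor that senses bile acids and regulates many of these genes.

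The values are log2 TPM (an abundance scaled by gene length and library size) after a batch correction in which the intestinal libraries were one batch and the liver libraries the other. After it, 99.4% of the genes had liver and intestinal means within 1 log2 unit of each other, so a level cannot be compared between liver and intestine, nor between genes. A gene that one organ hardly makes may also stand at a raised level there. Differences between groups within an organ keep their sign, but the correction may have stretched or compressed them. The number of reads behind a value is unknown, since the table holds no counts. Median values per library ranged from 2.13 to 3.82, and no 2 libraries were identical. The markers of hepatocytes and of enterocytes include genes listed at one repeated lowest value in the other organ, such as the sucrase gene *Sis* in 17 of 18 liver libraries.

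The genes lie on 9 chromosomes of the GRCm38 mouse genome, as protein-coding genes of the GENCODE annotation: *Slc10a1* at chr12:80953183-80968705, *Abcb11* at chr2:69238282-69342616, *Abcc2* at chr19:43782192-43840740, *Abcb4* at chr5:8893717-8959231 and *Abcc3* at chr11:94343295-94392997. *Abcc4* is at chr14:118482692-118706219, *Slc51a* at chr16:32474504-32487879, *Slc51b* at chr9:65412714-65422955, *Slc10a2* at chr8:5083219-5105351 and *Fabp6* at chr11:43596049-43601540. *Abcc2* and *Abcb4* are on the plus strand and the other genes on the minus strand. The promoters of 6 of them are printed. They are uptake and basolateral genes and the binding protein gene *Fabp6* that the liver and ileum results below turn on. *Slc51a* is shown as the partner of *Slc51b* in 1 carrier. The basolateral gene *Abcc3* had no promoter entry in the sequences used. Each runs from 250 bases before to 50 bases after the start site, 5′ to 3′ on the gene's own strand, from RefSeq on GRCm38.p6. *Slc10a1* and *Abcc4* have 2 listed start sites each, and the outer one is shown. Capitals mark a nuclear receptor half-site (AGGTCA on either strand) or an HNF1-type palindrome core (TTAATNATTAA on either strand).
*Slc10a1*, chr12:80968656-80968955, minus strand: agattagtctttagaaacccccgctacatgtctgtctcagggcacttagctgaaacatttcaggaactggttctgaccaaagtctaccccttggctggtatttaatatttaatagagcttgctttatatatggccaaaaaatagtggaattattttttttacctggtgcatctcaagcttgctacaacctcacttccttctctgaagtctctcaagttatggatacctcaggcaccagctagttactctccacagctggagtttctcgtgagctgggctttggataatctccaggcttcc
*Abcc4*, chr14:118706170-118706469, minus strand: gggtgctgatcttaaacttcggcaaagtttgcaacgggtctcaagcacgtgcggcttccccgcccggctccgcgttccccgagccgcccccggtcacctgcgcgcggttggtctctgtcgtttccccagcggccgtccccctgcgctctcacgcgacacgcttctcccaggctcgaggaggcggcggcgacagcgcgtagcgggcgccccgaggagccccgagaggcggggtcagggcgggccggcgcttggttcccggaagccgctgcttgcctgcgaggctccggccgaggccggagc
*Slc10a2*, chr8:5105238-5105537, minus strand: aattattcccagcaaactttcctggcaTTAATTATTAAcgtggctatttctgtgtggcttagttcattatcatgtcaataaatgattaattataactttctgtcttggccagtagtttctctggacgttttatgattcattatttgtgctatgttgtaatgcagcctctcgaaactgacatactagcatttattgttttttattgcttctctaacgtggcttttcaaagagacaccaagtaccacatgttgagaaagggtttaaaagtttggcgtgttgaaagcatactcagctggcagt
*Fabp6*, chr11:43601513-43601812, minus strand: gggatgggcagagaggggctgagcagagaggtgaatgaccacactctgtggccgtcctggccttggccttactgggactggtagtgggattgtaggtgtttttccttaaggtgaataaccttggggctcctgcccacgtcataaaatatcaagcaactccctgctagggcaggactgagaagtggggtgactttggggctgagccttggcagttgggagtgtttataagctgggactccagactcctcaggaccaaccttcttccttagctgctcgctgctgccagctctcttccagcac
*Slc51a*, chr16:32487830-32488129, minus strand: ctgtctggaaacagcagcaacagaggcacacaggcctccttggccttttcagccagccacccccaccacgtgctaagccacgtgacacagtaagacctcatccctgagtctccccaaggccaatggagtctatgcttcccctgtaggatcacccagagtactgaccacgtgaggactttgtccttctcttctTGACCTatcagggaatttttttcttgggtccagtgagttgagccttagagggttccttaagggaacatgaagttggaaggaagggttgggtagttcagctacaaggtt
*Slc51b*, chr9:65422724-65423023, minus strand: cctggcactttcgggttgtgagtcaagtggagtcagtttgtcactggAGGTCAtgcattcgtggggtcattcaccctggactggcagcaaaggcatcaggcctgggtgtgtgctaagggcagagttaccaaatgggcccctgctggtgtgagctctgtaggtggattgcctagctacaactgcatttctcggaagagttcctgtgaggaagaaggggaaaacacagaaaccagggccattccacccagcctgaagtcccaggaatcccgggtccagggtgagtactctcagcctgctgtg
Counted from the start site, the half-site begins at -58 in *Slc51a* and -203 in *Slc51b*, and windows of this length held it in 16.3% of 32851 mouse promoters. It was also found in the windows of *Abcb11* (-56), *Abcc2* (-49) and the inner *Slc10a1* start (-87), which are not printed. The HNF1-type core begins at -223 in *Slc10a2* and was found in 0.122% of promoters. An inverted repeat of the half-site with 1 base between (GGTCANTGACC, the FXR type; 0.0396% of promoters) and a direct repeat with 4 bases between (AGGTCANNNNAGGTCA, the LXR type; 0.0152%) were in none of the 11 windows searched, which covered 9 of the 10 genes. The search took these exact letters only. Repeats that differ from them in single bases were not looked for and may be present in the windows. The motifs were chosen with the sequences in view, and a match is a description of letters, not of binding.

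In the liver, resection went with a lower level of the uptake carrier and higher levels of 4 exporters. Of the 10 genes, *Abcc4*, *Slc51b*, *Abcb4* and *Abcc3* rose in SBR vehicle against sham and *Slc10a1* fell (limma, adjusted p under 0.05), so 5 of 10 changed. Over all 15901 genes tested, 41.9% changed in this comparison, 37.4% upward and 4.47% downward, so the members' share is close to the background. The median difference was 0.35 log2 units over 9 of the genes, without *Fabp6*, whose liver values mostly repeat 1 lowest value, and 0.25 over all genes. When each library was centred on its own median, the share of changed genes that were higher went from 89.3% to 41.3% over all genes. The 10 genes then had 2 higher (*Abcc4* and *Slc51b*) and 3 lower (*Slc10a1*, *Abcb11* and *Slc51a*), again 5 of 10, where 49.2% of all genes were called. Centred values of the 10 genes are therefore given beside the others where they differ in call or size, and for the pathway lists as counts. In bulk tissue, fewer cells of a type and less RNA per cell cannot be told apart.

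*Slc10a1*, which encodes the main sodium-dependent carrier for bile acids from portal blood, was lower after resection. Its log2 TPM was 6.59, 5.96, 6.31, 6.61 and 6.72 in the sham livers. In the 8 SBR vehicle livers it ran from 4.80 through a median of 5.56 to 5.73. In the SBR WUSTL0717 livers it was 5.91, 6.37, 6.61, 5.80 and 5.64. Every SBR vehicle liver lay below every sham liver, a lack of overlap found for 17.2% of all genes, and the treated livers spanned the gap between them. The difference between SBR vehicle and sham was -1.0 (SE 0.18, limma adjusted p = 0.000239), and -1.31 after centring. WUSTL0717 against vehicle gave 0.63 (SE 0.18, limma adjusted p = 0.0595), which missed the threshold, with 4 of 5 treated livers above all 8 vehicle livers. After centring that difference was 0.64 and passed (limma adjusted p = 0.00895). The SBR WUSTL0717 livers differed from sham by -0.37 (95% interval -0.80 to 0.05, limma adjusted p = 0.159), but by -0.67 after centring, which passed (limma adjusted p = 0.0117), as it did after quantile normalization and with library weights.

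**Figure D1:**
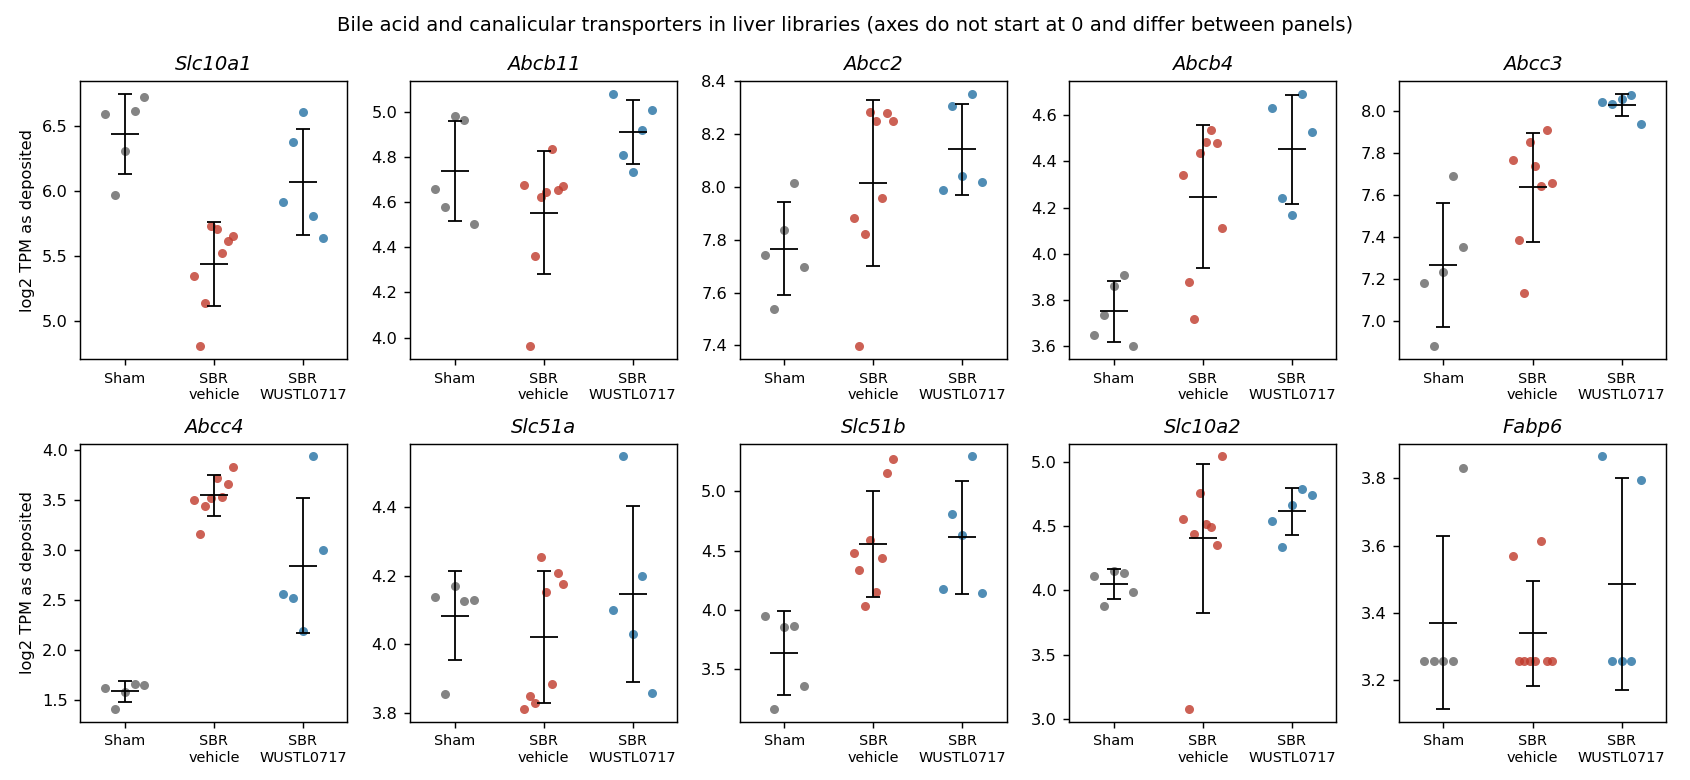
Log2 TPM as deposited of the 10 genes in each liver library, 1 panel per gene with its own vertical axis. Points are libraries of the sham (n = 5), SBR vehicle (n = 8) and SBR WUSTL0717 (n = 5) groups, and the bars show the mean and SD. *Abcc4* and *Slc51b* are higher and *Slc10a1* lower in SBR vehicle than in sham livers with no overlap, and 1 treated liver stands at 3.93 for *Abcc4*.

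Of the 3 canalicular genes, *Abcb4* alone passed the test after resection in the values as deposited, while after centring *Abcb11* passed, downward, and *Abcb4* did not. *Abcb11*, the pump that carries bile salts into the canaliculus, stood at 4.66, 4.58, 4.98, 4.97 and 4.51 in sham livers. It ran from 3.96 through a median of 4.65 to 4.84 in SBR vehicle livers, and was 5.08, 4.81, 4.74, 4.92 and 5.01 in SBR WUSTL0717 livers. The 3 groups overlapped, and SBR vehicle replicate 2 was the lowest library. The difference after resection was -0.18 (95% interval -0.45 to 0.09, limma adjusted p = 0.26), and -0.49 after centring, which passed (limma adjusted p = 3.06e-05). With WUSTL0717 it was 0.36 above vehicle (SE 0.13, limma adjusted p = 0.137), all 5 treated livers lay above the vehicle median, and after centring 0.36 passed (limma adjusted p = 0.0027).

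*Abcc2* encodes MRP2, which exports bilirubin and other conjugates into bile. Its values were 7.74, 7.54, 7.84, 8.01 and 7.70 in sham livers, 7.40 to 8.28 with a median of 8.10 in SBR vehicle livers, and 7.99, 8.31, 8.04, 8.35 and 8.02 in treated livers. The groups overlapped, and neither the difference after resection (0.25, limma adjusted p = 0.158) nor that with the drug (0.13, limma adjusted p = 0.733) passed. The sign of the first depended on the scaling, at -0.06 after centring.

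*Abcb4*, the floppase that supplies phosphatidylcholine to bile, was 3.65, 3.73, 3.86, 3.91 and 3.60 in sham livers. It was 3.72 to 4.54 with a median of 4.39 in SBR vehicle livers, and 4.63, 4.24, 4.17, 4.69 and 4.53 in treated livers. All treated livers and 6 of 8 SBR vehicle livers lay above every sham liver. The difference after resection was 0.50 (SE 0.14, limma adjusted p = 0.00803), but 0.19 after centring (limma adjusted p = 0.0623). Between treated and vehicle livers it was 0.20 (95% interval -0.09 to 0.50, limma adjusted p = 0.517), and between treated and sham livers 0.70 (limma adjusted p = 0.00373; 0.40 after centring).

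The basolateral exporters moved unevenly. *Abcc4*, which encodes MRP4, showed the largest difference of the 10 genes after resection. It was 1.62, 1.41, 1.58, 1.66 and 1.66 in sham livers, 3.16 to 3.83 with a median of 3.52 in SBR vehicle livers, and 2.56, 2.52, 2.19, 3.93 and 3.00 in SBR WUSTL0717 livers. Sham livers were lowest throughout, and 4 of 5 treated livers lay between the sham and the vehicle livers. The fifth, replicate 4, lay above all vehicle livers. The difference after resection was 1.96 (SE 0.20, limma adjusted p = 5.32e-07, rank 283 of 15901 genes by p), and 1.65 after centring. WUSTL0717 against vehicle gave -0.70 (SE 0.20, limma adjusted p = 0.0568), which missed the threshold. Without treated replicate 4 it was -0.97 (limma adjusted p = 0.00041), without SBR vehicle replicate 2 it was -0.76 (limma adjusted p = 0.0367), and after centring it was -0.70 and passed (limma adjusted p = 0.00753). Treated livers stayed above sham by 1.25 (limma adjusted p = 0.000797; 0.95 after centring).

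*Abcc3*, which encodes MRP3, was 7.18, 6.88, 7.23, 7.69 and 7.35 in sham livers, 7.13 to 7.91 with a median of 7.70 in SBR vehicle livers, and 8.05, 8.03, 8.06, 8.08 and 7.94 in treated livers. The treated livers were close together and above every vehicle liver, where 1.54% of all genes did not overlap between these groups. The difference after resection was 0.37 (SE 0.13, limma adjusted p = 0.0302). This call was not stable. It passed 6 of 13 times when 1 library was left out, and was lost after centring (0.06, limma adjusted p = 0.594), after quantile normalization (adjusted p = 0.0705 in limma), with the replicate block (0.0843), in the unmoderated two-sample test (0.0857) and in the fit of the compared groups alone (0.0631). WUSTL0717 against vehicle gave 0.39 (SE 0.13, limma adjusted p = 0.104), and 0.40 after centring (limma adjusted p = 0.00446). Against sham the treated livers were 0.76 higher (limma adjusted p = 0.0013; 0.46 after centring).

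Of the 2 parts of the OST carrier, *Slc51b* rose after resection and *Slc51a* did not pass in the values as deposited. *Slc51b* was 3.95, 3.17, 3.86, 3.86 and 3.36 in sham livers, 4.03 to 5.27 with a median of 4.46 in SBR vehicle livers, and 4.18, 4.81, 4.63, 5.29 and 4.14 in treated livers. Every SBR liver, with or without drug, lay above every sham liver. The difference after resection was 0.92 (SE 0.23, limma adjusted p = 0.00315), and 0.61 after centring (limma adjusted p = 0.0203). That between treated and vehicle livers was 0.05 (95% interval -0.42 to 0.53, limma adjusted p = 0.952). *Slc51a* was 4.14, 3.85, 4.17, 4.13 and 4.13 in sham livers, 3.81 to 4.26 with a median of 4.02 in SBR vehicle livers, and 4.10, 4.55, 4.03, 4.20 and 3.86 in treated livers. Its groups overlapped, with a difference of -0.06 after resection (95% interval -0.30 to 0.18, limma adjusted p = 0.685), and -0.37 after centring, which passed (limma adjusted p = 0.00633). With the drug it was 0.13 (95% interval -0.11 to 0.37). Whether the 2 parts differed from each other in their response was not tested.

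The 2 genes of ileal uptake were also followed in the liver, where *Slc10a2* is known from cholangiocytes, the cells of the bile ducts. *Slc10a2* was 4.11, 3.88, 4.15, 4.14 and 3.98 in sham livers, 3.08 to 5.04 with a median of 4.50 in SBR vehicle livers, and 4.53, 4.34, 4.67, 4.78 and 4.74 in treated livers. Of 8 SBR vehicle livers, 7 lay above every sham liver, and replicate 2 below all of them. The difference after resection was 0.35 (SE 0.22, limma adjusted p = 0.2), and 0.54 without that replicate (limma adjusted p = 0.000539), but 0.04 after centring with all libraries. *Fabp6* was listed at 1 repeated lowest value, 3.26, in 13 of 18 livers, in 4 of 5 sham, 6 of 8 SBR vehicle and 3 of 5 treated livers, so the liver values of this gene carry no comparison.

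Over the 10 liver genes, WUSTL0717 against vehicle passed the test for none, where 4.1% of 15901 genes passed (limma) and 17.2% had an unadjusted p under 0.05. At that unadjusted level there were 4: *Slc10a1*, *Abcb11* and *Abcc3* higher and *Abcc4* lower. These 4 passed after centring each library and after quantile normalization, which also raised the calls over all genes from 652 to 3131 and 2635. Without *Fabp6*, the median difference was 0.20 over 9 genes and 0.02 over all genes, and 8 of the 9 were positive, all but *Abcc4*. SBR WUSTL0717 against sham, which shares its libraries with the other comparisons, called *Abcc4*, *Slc51b*, *Abcb4* and *Abcc3* higher, where 28.8% of all genes were called, 27.9% upward, and 28.1% did not overlap. With library weights the members called became 8 and the share of all genes 52.7%. Of these, *Slc51b* (0.97, limma adjusted p = 0.00919) was 0.67 after centring (limma adjusted p = 0.0476) and lost its call after quantile normalization (0.66, limma adjusted p = 0.054).

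**Figure D2:**
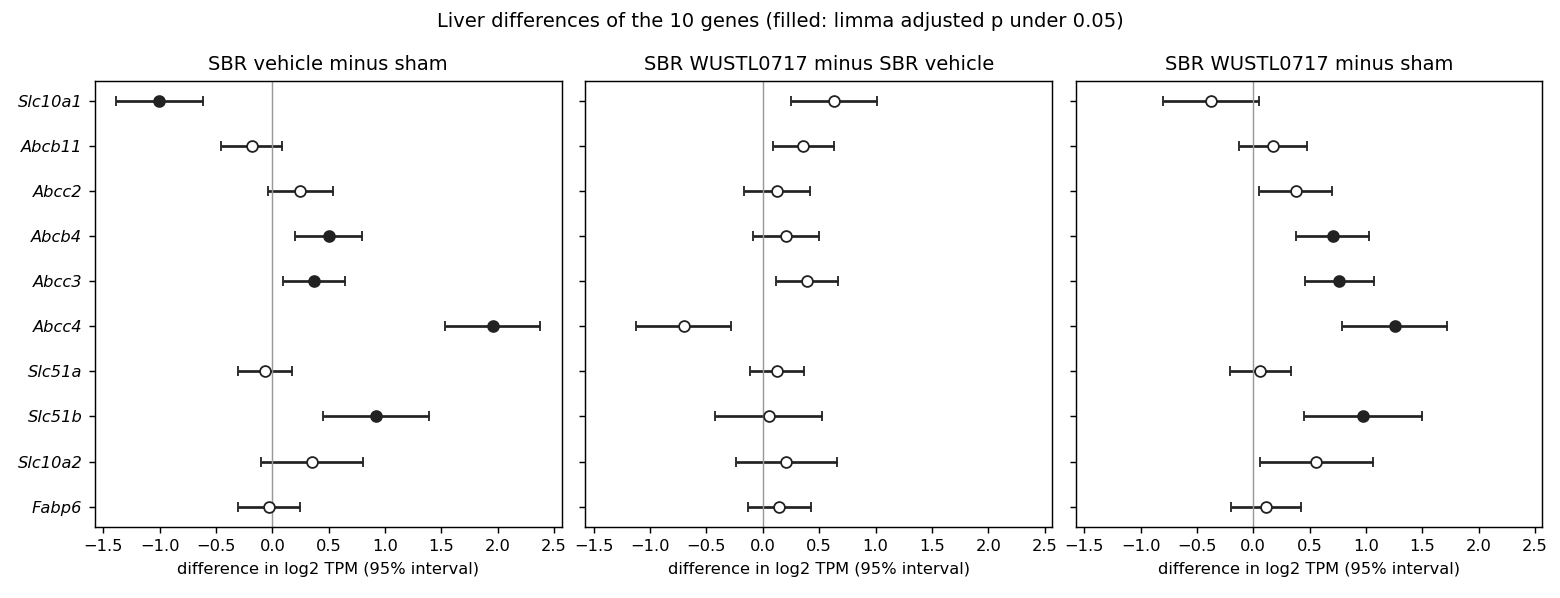
Differences in log2 TPM of the 10 genes between the 3 liver groups, with 95% intervals from limma. Filled points have an adjusted p under 0.05: 5 genes after resection, none for WUSTL0717 against vehicle and 4 for WUSTL0717 against sham. The values are as deposited, and after centring *Abcc2* changes sign in the first panel, and *Abcb11* and *Slc51a* in the third. *Fabp6* is drawn from values that mostly repeat 1 lowest value and carries no comparison.

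Markers of other liver cells moved with the same groups. Over all genes 37.4% rose and 4.47% fell after resection, and 1.44% rose and 2.66% fell with the drug. After centring 49.2% and 19.7% of all genes were called in either direction. All 7 cholangiocyte markers measured, such as *Krt19* and *Sox9*, rose after resection (median 1.82; 1.52 after centring), and their mean per library was 3.17 to 3.86 in sham, 5.03 to 5.76 in SBR vehicle and 4.31 to 5.29 in SBR WUSTL0717 livers. Of 5 markers of stellate cells and fibroblasts 4 rose (median 1.84; also 4 after centring), from 3.81 to 4.34 in sham to 5.35 to 6.13 in SBR vehicle and 4.78 to 5.64 in treated livers. Of 9 hepatocyte markers 4 fell (median -0.42; all 9 after centring), with means of 7.05 to 7.60, 6.21 to 7.22 and 7.19 to 7.56. With WUSTL0717 against vehicle, 5 of 7 cholangiocyte markers and 3 of 5 stellate markers fell and 1 of 9 hepatocyte markers rose. Of 7 leukocyte markers 2 rose after resection, and after centring 2 rose and 1 fell. Treated replicate 4, highest of its group for 6 of the 10 genes including *Abcc4*, was also the highest treated liver for the cholangiocyte (5.29) and the stellate (5.64) markers. SBR vehicle replicate 2, lowest of its group for 5 of the 10 genes, was lowest for the hepatocyte (6.21) and the cholangiocyte (5.03) markers. Sham replicate 2, lowest of its group for 7 of the 10 genes, was likewise lowest of the sham livers for the hepatocyte (7.05), cholangiocyte (3.17) and stellate (3.81) markers. The same livers stood at an end of their group in the median over all genes. Treated replicate 4 was highest (3.73), and SBR vehicle replicate 2 (3.13) and sham replicate 2 (3.05) were lowest. Their marker values therefore also hold what differs between whole libraries. The part of these cells in the values of *Slc10a1*, *Abcc4*, *Slc51b* and *Slc10a2* was not tested.

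Of the 4 other uptake carriers, 3 fell and 1 rose after resection (3 and 0 after centring). Over all genes 4.47% fell and 37.4% rose, and 49.2% were called in either direction after centring. *Slco1a1*, an organic anion carrier of the basolateral hepatocyte membrane, went from 4.61 to 4.98 in sham livers to 0.25 to 2.04 in SBR vehicle livers and 1.40 to 3.15 in treated livers. That was a difference of -3.71 (SE 0.28, limma adjusted p = 1.93e-08). With the drug it was 0.88 higher (limma adjusted p = 0.0836). *Slco1b2*, another carrier of this family, differed by -0.66 (limma adjusted p = 0.000477), and by 0.50 with the drug (SE 0.13, limma adjusted p = 0.0341), where treated livers lay above all vehicle livers. *Slco2b1* differed by -0.42 (limma adjusted p = 0.0283) and by 0.45 with the drug (limma adjusted p = 0.0966).

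Among 11 other efflux pumps and flippases, 3 rose and 3 fell after resection (1 and 7 after centring), and 1 rose with the drug (5 after centring). Over all genes 37.4% rose and 4.47% fell after resection, and 1.44% rose and 2.66% fell with the drug. After centring 49.2% and 19.7% of all genes were called in either direction. *Abcb1a*, a multidrug pump of the canalicular membrane, rose by 1.47 (SE 0.19, limma adjusted p = 4.83e-06), and differed by -0.30 with the drug (limma adjusted p = 0.442). *Abcc6* differed by -0.36 after resection (limma adjusted p = 0.00313) and by 0.41 with the drug (limma adjusted p = 0.0156). *Abcg5*, one part of the sterol exporter and a known LXR target, differed by -0.64 after resection (limma adjusted p = 0.00426) and by 0.47 with the drug (limma adjusted p = 0.125). Of 9 genes listed for the scaffold and trafficking of the canalicular membrane, 6 rose and 1 fell after resection, where 37.4% of all genes rose. The list's median was 0.38 against 0.25 over all genes, and after centring 3 rose and 2 fell. They included *Ezr*, which links membrane proteins to actin (1.70, limma adjusted p = 7.3e-07), and the motor *Myo5b* (0.57, limma adjusted p = 0.000968), at 1.40 and 0.27 after centring. *Ezr* had means of 5.53 in sham, 7.23 in SBR vehicle and 6.45 in treated livers, and the cholangiocyte markers 3.56, 5.46 and 4.68. In which liver cells *Ezr* rose was not tested, so its rise is not assigned to the canalicular membrane. With the drug, *Ezr* fell by 0.78 (limma adjusted p = 0.0217), and the other 8 did not pass (after centring 2 rose and 2 fell).

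Among 11 receptors and regulators, 3 fell after resection (9 after centring) and 1 rose with the drug (6 after centring). Over all genes 4.47% fell after resection and 1.44% rose with the drug, and after centring 49.2% and 19.7% were called in either direction. *Nr1h4* itself did not pass in the liver as deposited (-0.27 after resection, limma adjusted p = 0.115, but -0.58 and 0.000141 after centring; 0.27 with the drug, limma adjusted p = 0.333). *Nr0b2*, which encodes the repressor SHP and is a target of FXR, was 4.66 to 6.15 in sham, 3.18 to 5.13 in SBR vehicle and 5.39 to 5.96 in treated livers. It fell by 0.93 after resection (SE 0.30, limma adjusted p = 0.0192) and was 1.16 higher with the drug (limma adjusted p = 0.0358), all treated livers above all vehicle livers. *Klb*, the co-receptor for ileal FGF signals, differed by -0.33 after resection (limma adjusted p = 0.0309) and *Rxra* by -0.19 (limma adjusted p = 0.0998), and after centring by -0.64 and -0.49, both past the threshold. With the drug they differed by 0.25 each (limma adjusted p = 0.288 and 0.134).

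Of 13 genes of bile acid synthesis, 6 fell and none rose after resection (10 and 0 after centring), where 4.47% of all genes fell. With the drug 4 rose (9 after centring), where 1.44% of all genes rose. After centring 49.2% and 19.7% of all genes were called in either direction, so the centred counts stand against a larger share. *Cyp7b1* of the alternative pathway was 4.64 to 5.24 in sham, 2.19 to 2.99 in SBR vehicle and 3.22 to 4.29 in treated livers. It differed by -2.39 after resection (SE 0.16, limma adjusted p = 1.04e-08, rank 16) and by 0.96 with the drug (limma adjusted p = 0.00679). *Cyp8b1*, which makes cholic acid, differed by -0.96 (limma adjusted p = 0.00951) and 1.19 (limma adjusted p = 0.0218), and *Slc27a5*, which activates bile acids for conjugation, by -0.63 (limma adjusted p = 0.0013) and 0.60 (limma adjusted p = 0.0209).

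**Figure D3:**
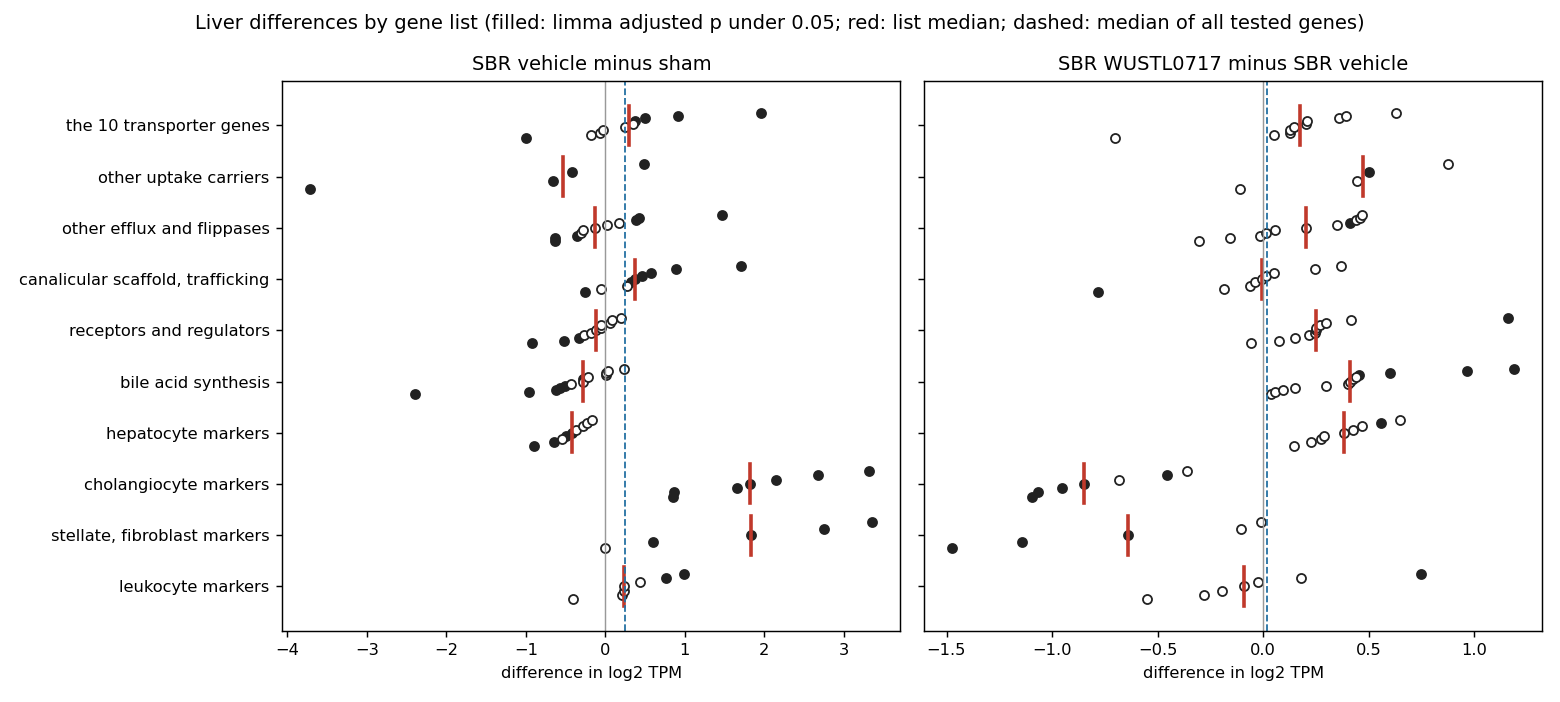
Differences in log2 TPM of single genes in the liver, by gene list, for resection (left) and for WUSTL0717 against vehicle (right). Filled points have a limma adjusted p under 0.05, the red bar is the list's median (with *Fabp6* among the 10 genes) and the dashed line the median of all 15901 genes, at 0.25 and 0.02. The left values are as deposited, where most genes are shifted upward.

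Within the groups, *Abcb11* varied most closely with *Trim2*, *Tex2* and *Sumo3*. Over the 18 livers, their deviations from group means had a Pearson r of 0.97, 0.97 and 0.96 with those of *Abcb11*, the highest of 15895 genes compared, and 0.94, 0.93 and 0.93 without the 2 livers farthest from the median. *Abcb4* had 0.77 (0.75 without those livers), *Slc10a2* 0.73 (0.33) and *Slc10a1* 0.29 (0.02). All points share 1 library set, so these values also hold what differs between whole libraries. How high a search over all genes reaches without any link between genes was not tested.

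In the ileum below the anastomosis, the uptake carrier and the binding protein were higher after resection. *Slc10a2* was 5.18, 4.87 and 4.42 in the sham ileum, 6.89, 6.74, 6.76 and 6.98 with SBR vehicle and 6.67, 7.19, 6.64 and 6.15 with SBR WUSTL0717. *Fabp6* was 6.35, 5.87 and 6.08, then 8.33, 7.87, 8.37 and 8.03, and with the drug 7.96, 8.54, 7.91 and 7.71. For both genes every SBR library, treated or not, lay above every sham library. After resection *Slc10a2* rose by 2.02 (SE 0.30, limma adjusted p = 0.0145, rank 16 of 15772 genes by p) and *Fabp6* by 2.05 (SE 0.29, limma adjusted p = 0.0137, rank 14). Of all genes tested, 0.349% passed in this comparison, 0.241% upward. That was 55 genes, and 3 to 38 with 1 library left out. An exact two-sided permutation test over libraries gave p = 0.0571 for each. That was the lowest it gave for any of the 10 genes between intestinal SBR and sham groups. Both limma calls depended on the spread pooled over the 3 groups and on single libraries. Leaving out 1 library at a time, each passed 3 of 7 times, and the highest adjusted p (limma, 0.0984) came without sham replicate 2. In a fit of the 2 compared groups alone both had a limma adjusted p of 0.0507. Values stayed between 1.82 and 2.20 for *Slc10a2* and between 1.94 and 2.18 for *Fabp6*.

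Both parts of the OST carrier were also at higher values in the resected ileum without passing the test. *Slc51a* was 4.46, 4.51 and 4.58 in sham, 5.20, 5.15, 5.16 and 5.31 in SBR vehicle and 5.18, 5.54, 5.21 and 5.10 in SBR WUSTL0717 libraries. The sham libraries lay below all others, and the difference after resection was 0.69 (SE 0.22, limma adjusted p = 0.306). Groups did not overlap for 9.5% of all genes in this comparison. *Slc51b* was 4.58, 4.53 and 4.91, then 4.99, 5.18, 5.14 and 4.80, and with the drug 5.14, 5.35, 4.93 and 4.85. Its groups overlapped by 1 sham library, with a difference of 0.35 (95% interval -0.17 to 0.87, limma adjusted p = 0.828).

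WUSTL0717 passed for none of the 4 genes in the ileum, where 0.0697% of 15772 genes passed (limma) and 6.87% had an unadjusted p under 0.05, none of them among the 4. The differences from vehicle were -0.18 for *Slc10a2* (95% interval -0.77 to 0.42), -0.12 for *Fabp6* (-0.70 to 0.46), 0.05 for *Slc51a* (-0.39 to 0.49) and 0.04 for *Slc51b* (-0.44 to 0.52). Against sham, the treated ileum had *Fabp6* 1.93 higher (limma adjusted p = 0.00829) and *Slc10a2* 1.85 higher (limma adjusted p = 0.0104), where 2.17% of genes passed. *Nr1h4* was 2.00 higher after resection in the ileum (limma adjusted p = 0.067) and did not pass. *Nr0b2* differed by 1.65 between treated and vehicle ileum (limma adjusted p = 0.31) and was 2.17 higher in the treated than in the sham ileum (limma adjusted p = 0.0177). Among the other lists, 1 gene of synthesis rose after resection (*Acox2*), and *Abcg5* rose by 2.68 with the drug (limma adjusted p = 0.0233).

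Among cell type markers in the ileum after resection, limma called 0 of 7 enterocyte (median 0.06), 0 of 2 ileal (0.50) and 0 of 5 smooth muscle markers (0.45). It also called 0 of 7 leukocyte markers (-0.44) and 0 of 7 markers listed for cholangiocytes, all 7 of which were positive (0.65). Per library, the mean of the enterocyte markers was 5.58 to 5.67 in sham and 5.59 to 5.82 in SBR vehicle libraries. That of the 2 ileal markers was 3.76 to 4.24 and 4.32 to 4.85, without overlap, which rests on *Cubn* (1.09, limma adjusted p = 0.281), while *Amn* differed by -0.09. The mean of the markers listed for cholangiocytes was 3.99 to 4.36 in sham and 4.74 to 5.14 in SBR vehicle libraries, also without overlap. That of the stellate and fibroblast markers was 3.88 to 5.27 and 4.78 to 5.78, with overlap. The part of all these markers in the rise of *Slc10a2* and *Fabp6* was not tested.

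*Fabp6* varied in the ileum most closely with *Efemp1*, *Ncbp1* and *Arpc3*, with a Pearson r of deviations from group means of 0.95 each over 11 libraries, among 15765 genes. Without the 2 libraries farthest from the median these were 0.91, 0.88 and 0.87. *Slc10a2* had 0.69 and *Slc51a* 0.60, and without those libraries 0.29 and 0.28. The closest genes were picked as the highest over few libraries. How high such a search reaches without any link between genes was not tested. As in the liver, the values also hold what differs between whole libraries.

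**Figure D4:**
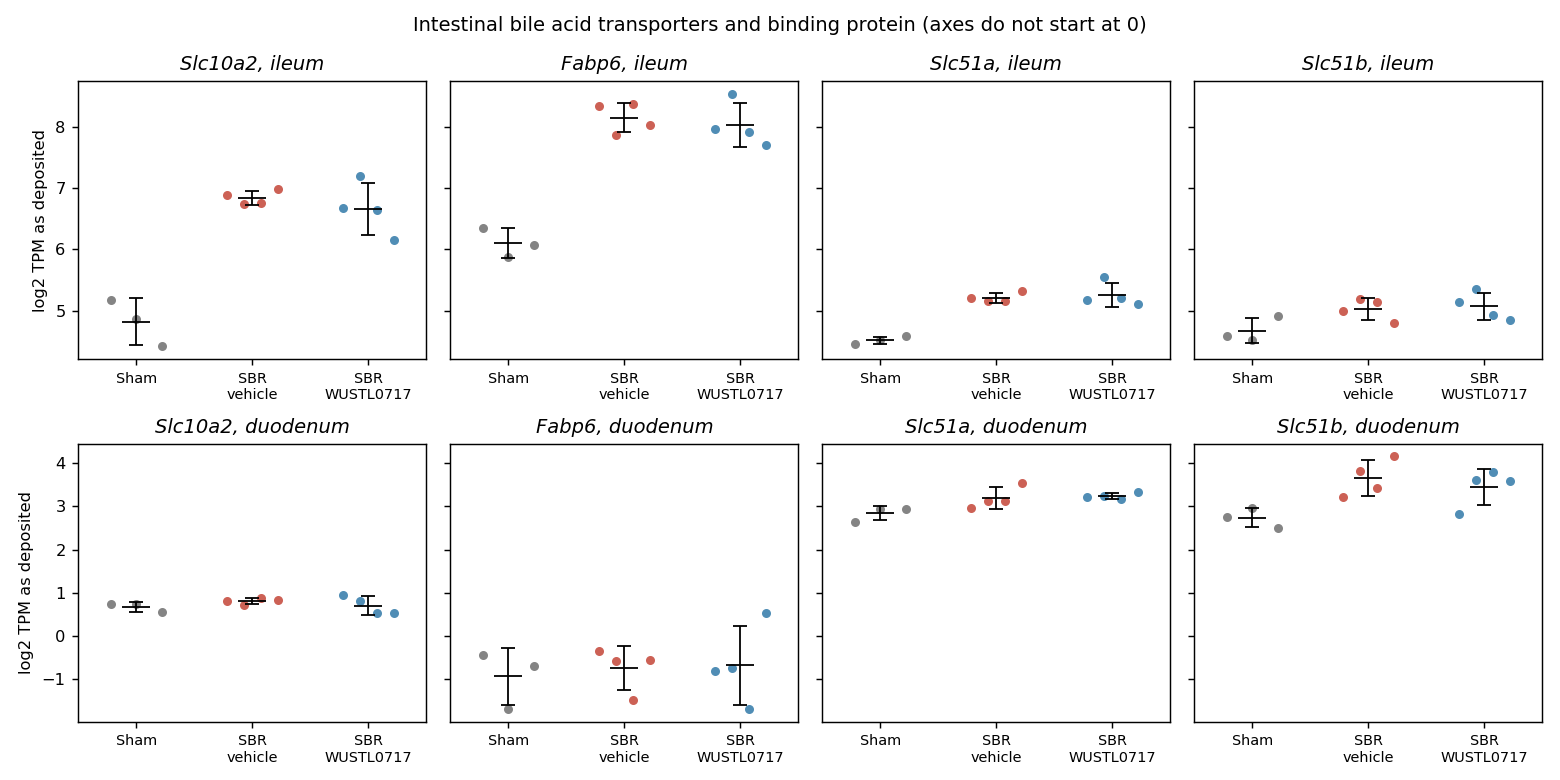
Log2 TPM as deposited of *Slc10a2*, *Fabp6*, *Slc51a* and *Slc51b* in each library of the ileum (top) and the duodenum (bottom), with the mean and SD of each group (n = 3, 4 and 4). In the ileum all SBR libraries stand above sham for *Slc10a2* and *Fabp6*, and in the duodenum these genes stay below 1.

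The duodenum showed these genes at lower levels. In the duodenum *Slc10a2* lay between 0.53 and 0.95 and *Fabp6* between -1.69 and 0.53 in all 11 libraries, under the filter of a mean of 1, so neither was tested there. *Fabp6* was at its repeated lowest value in 1 of 3 sham and 1 of 4 treated libraries of the duodenum. Both genes pass a filter over the 2 regions only through the ileum, so their regional difference is given without a test: the sham means were 6.10 in the ileum and -0.93 in the duodenum for *Fabp6*, and 4.82 and 0.67 for *Slc10a2*. In sham mice the ileum exceeded the duodenum by 1.94 for *Slc51b* (limma adjusted p = 0.000224) and 1.67 for *Slc51a* (limma adjusted p = 0.000111), where 14.6% of 15923 genes were called, and 3 of 4 duodenal markers were lower in the ileum.

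*Slc51b* was 2.76, 2.95 and 2.50 in the sham duodenum, 3.22, 3.82, 3.43 and 4.15 with SBR vehicle and 2.83, 3.61, 3.78 and 3.57 with WUSTL0717. *Slc51a* was 2.65, 2.94 and 2.94, then 2.97, 3.13, 3.13 and 3.55, and with the drug 3.21, 3.24, 3.17 and 3.33. For both, SBR vehicle libraries lay above all sham libraries, as was so for 9.65% of genes without overlap in either direction. The differences after resection were 0.92 for *Slc51b* (SE 0.37, limma adjusted p = 0.281) and 0.35 for *Slc51a* (95% interval -0.30 to 1.00, limma adjusted p = 0.539). In this comparison limma called 0 of 15093 genes, while 2426 had an unadjusted p under 0.05, an unmoderated two-sample test called 1, and limma with library weights called 2497. The median over all genes was -0.36, so both genes stood further above it than above 0. With WUSTL0717, *Slc51b* differed by -0.21 and *Slc51a* by 0.04 (limma adjusted p = 1 for both), where 0.258% of genes passed. *Nr1h4* and *Nr0b2* differed by 1.01 and 1.04 with the drug (limma adjusted p = 0.975 and 0.844).

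The effect of resection was compared between the 2 regions by an interaction in limma for *Slc51a* and *Slc51b*. The ileal minus the duodenal difference was 0.34 and -0.56 (limma adjusted p = 0.641 and 0.525). The labels do not say whether the 2 regions came from the same mice, and the fit took all libraries as independent. Neither passed, where 0.0754% of genes did. The effect of the drug gave an adjusted p of 1 for both (limma), where 0.0251% of genes passed.

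The 6 remaining genes are read with care in the intestine, since the correction set their intestinal means close to those of the liver. None of *Slc10a1*, *Abcb11*, *Abcc2*, *Abcb4*, *Abcc3* and *Abcc4* passed for resection or for the drug in either region (limma). Among those differences, 2 named after their values were seen were large, without overlap between groups. *Abcc2* was 5.86, 6.92 and 5.89 in the sham duodenum and 7.90, 7.92, 10.32 and 9.06 with SBR vehicle, a difference of 2.57 (SE 0.60, limma adjusted p = 0.206, rank 73 of 15093). *Slc10a1* was 5.23, 6.33 and 5.98 in the sham ileum, 5.31, 2.59, 3.31 and 4.75 with SBR vehicle and 6.64, 5.85, 6.65 and 6.62 with WUSTL0717. The vehicle libraries were low and scattered: they differed from sham by -1.86 (limma adjusted p = 0.284), the treated libraries from vehicle by 2.45 (SE 0.53, limma adjusted p = 0.284, rank 31 of 15772) and from sham by 0.59 (limma adjusted p = 0.734). Between treated and vehicle ileum, 3.83% of all genes showed no overlap. In sham mice *Abcc4* was 1.21 higher (limma adjusted p = 0.0424) and *Abcc3* 2.05 lower in the ileum than in the duodenum (limma adjusted p = 0.00485).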

How the data were processed

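Total RNA depleted of ribosomal RNA was sequenced by the authors as 150-base read pairs, aligned with STAR 2.7.9a1 to GRCm38 and counted per Ensembl gene with featureCounts 2.0.32, versions as the submitters' processing notes give them. The log2 values used here were deposited by the authors: TPM, stripped of genes at 0 throughout, log-transformed and batch-corrected with ComBat. Depth per library cannot be read from them, and the added pseudocount is not given in the sources used here (1 was assumed where it was varied). Here, limma 3.58.1 in R 4.3.3 was fitted to the 3 groups of each tissue, with a variance trend, leaving out genes whose log2 TPM averaged under 1 in that tissue. P-values were adjusted over all genes tested by Benjamini-Hochberg, with 0.05 as threshold. The interaction used both intestinal regions and was read for *Slc51a* and *Slc51b*, since *Slc10a2* and *Fabp6* were under the filter in the duodenum. The fit was tested on simulated data. Single member genes were also compared by exact two-sided permutation tests over libraries, given here for the ileal rises after resection. Python 3.11.15, numpy 2.4.6, pandas 2.3.3, scipy 1.17.1 and matplotlib 3.10.9 did the rest.

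The members and the gene lists were chosen with earlier results of these data known, and the motifs after the promoters were seen. Beyond the members, the text names the 3 genes of each list with the smallest p in either liver comparison, *Nr1h4* and *Nr0b2* in every tissue, and the 3 genes most like *Abcb11* and *Fabp6*. *Nherf1*, *Fgf15*, *Gpbar1*, *Hsd3b7* and *Trpv6* were not analysed here, and 1 gene that this rule names is not reported here. Alternatives were no filter, a filter at 3, pseudocounts of 5 and 0.1, centring, quantile normalization, no variance trend, library weights, a replicate block, an unmoderated two-sample test, a fit of the compared groups alone, each library left out and, added after seeing the data, a block pairing the intestinal regions.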

Additional observations from a re-analysis of the deposited data

Results flagged for a closer look

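A library stood apart from the rest of its group in 3 of 46 groups of 4 to 8 libraries tested by Dixon's test at the 95% level. Among groups of untied values, chance alone flags about 1 in 20. *Slc51a* was 3.85 in sham liver replicate 2, and the other 4 sham livers lay between 4.13 and 4.17. *Slc10a2* was 3.08 in SBR vehicle liver replicate 2, and the other 7 lay between 4.35 and 5.04. *Fabp6* was 3.83 in sham liver replicate 5, and the other 4 sham livers were at the repeated lowest value of 3.26. With those values tied any single higher value is flagged, so this flag carries no comparison.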

How the results depend on the processing

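The rises of *Abcc4* and *Slc51b* and the fall of *Slc10a1* after resection in the liver kept their direction under every alternative that gave them a value. *Abcc4* was not tested with the filter at 3. The number of the 10 liver genes called after resection was 5. It was 4, without *Abcc3*, with the replicate block, in the two-sample test and with the compared groups alone (35.1%, 36.2% and 38.5% of genes). It was 4 to 7 with 1 library left out (7 without SBR vehicle replicate 2, with 9010 of 15901 genes called). For WUSTL0717 against vehicle in the liver the number was 0. It was 4 after centring, 4 after quantile normalization and 2 with library weights, where 19.7%, 16.6% and 17.7% of all genes were called. With 1 library left out it was 0 to 2 (2 without treated replicate 4, with 1075 of 15901 genes called). Against sham the number was 4, 8 with library weights and 4 to 5 with 1 library left out. It was 6 with the replicate block, in the two-sample test and with the compared groups alone, where *Abcc2* and *Slc10a2* also passed. After centring *Slc10a1* passed besides the 4, and after quantile normalization *Slc10a1* passed and *Slc51b* did not. All genes called in that comparison went from 28.8% to 52.7% with library weights, 38.2% with the block, 36.1% in the two-sample test, 40.9% with those groups alone, 19.6% after centring and 20.1% after quantile normalization. After resection *Abcc2* and *Slc10a2* passed with library weights (7 called), where 65.8% of all genes were called. In the ileum 2 of 4 genes were called after resection, but 0 in the unmoderated two-sample test, 0 in the fit of the compared groups alone and 0 to 2 with 1 library left out (0 without sham replicates 2 or 3 or SBR vehicle replicates 1 or 3). For the treated against the sham ileum, 2 were called, 0 in the two-sample test, 1 in the fit of those groups alone, 3 with library weights (*Slc51a*, limma adjusted p = 0.0436) and 0 to 2 with 1 library left out (0 without sham replicate 2). In the duodenum library weights called *Slc51b* after resection, where 16.5% of all genes were called. Neither *Slc51a* nor *Slc51b* passed the interaction under any alternative run.

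Within a tissue, in none of the 6 comparisons between groups checked did all same-numbered libraries deviate together (lowest r -0.32). Between ileum and duodenum of 1 group the lowest r was 0.0699 in sham, -0.136 in SBR vehicle and -0.0813 in SBR WUSTL0717, with the best match at the same number for 3 of 3, 1 of 4 and 2 of 4 libraries, so the numbers were not taken to pair the regions. A replicate block on such pairs, added after seeing the data, left *Slc51a* and *Slc51b* on the same side of the threshold in each region comparison. With the replicate block 0 genes were called after resection in the ileum (2.09 for *Slc10a2* and 2.12 for *Fabp6*, limma adjusted p = 0.0867 for both), 1 in the treated against the sham ileum.

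Values that changed sign were these, and the cause was not tested. After centring, *Abcc2* after resection in the liver was -0.0583, and treated against sham livers gave -0.1276 for *Abcb11*, -0.2371 for *Slc51a* and -0.1865 for *Fabp6* (quantile normalization: -0.1104, -0.2408 and -0.1892). With library weights the liver drug difference was -0.0521 for *Abcc2* and -0.3336 for *Slc51b*, and treated against sham gave -0.0408 for *Slc51a*. The ileal drug difference of *Slc51a* and *Slc51b* was -0.051 and -0.0362 after quantile normalization and -0.0115 and -0.0267 with library weights, and the duodenal one of *Slc51a* was -0.0352 and -0.0774. The interaction for resection of *Slc51a* was -0.1399 after centring and -0.1087 after quantile normalization, and that for the drug -0.0333 after quantile normalization. Those of *Fabp6* in the liver rest on a repeated lowest value and carry no comparison.

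With 1 library left out, signs changed within these ranges: *Fabp6* after resection in the liver -0.07 to 0.0839, liver drug *Slc51b* -0.1173 to 0.1699, treated against sham liver *Slc51a* -0.0364 to 0.1363, ileal drug *Slc51a* -0.0415 to 0.105 and *Slc51b* -0.0512 to 0.1156, duodenal drug *Slc51a* -0.0312 to 0.162 and *Slc51b* -0.3512 to 0.0003. For the drug interaction of *Slc51a* it was -0.1092 to 0.084.

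Over all genes, calls after resection in the liver went from 6663 to 4180 with the filter at 3 and 10462 with library weights, and in the ileum from 55 to 12 with the block, 5 in the two-sample test, 10 with the compared groups alone, 93 after quantile normalization and 279 with library weights. For the drug in the liver the calls went from 652 to 334 with the filter at 3, 148 with the compared groups alone, 0 in the two-sample test, 3131 after centring, 2635 after quantile normalization and 2819 with library weights, and to between 93 and 1075 with 1 library left out. In the duodenum the 0 calls after resection became 482 without SBR vehicle replicate 1. Depth is unknown, so no limit of detection is given.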
